A study of Mus musculus with 24 samples.

Results

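Hox genes encode homeodomain transcription factors and lie in 4 chromosomal clusters named A to D. Members at the same place in different clusters are paralogs and share a number from 1 to 13. All entries of the gene table whose name began with Hoxa, Hoxb, Hoxc or Hoxd and a number, with or without the antisense ending os, were taken. This gave 25 genes of 15055 in the table, of which 24 code for a protein and 1, Hoxa11os, is an antisense RNA of Hoxa11. The table came from hind limb digit tips of C57BL/6 mice aged 10 to 12 weeks, taken after amputation at a distal or a proximal level. There were 6 groups of 4 libraries each: distal amputation at 12, 14 and 21 days, and proximal amputation at 12, 14 and 21 days. The labels describe the tissue as a mix of bone, cartilage, marrow and skin layers, and they do not say how many digits or animals each library holds. The p-values below therefore measure the spread between libraries, which may be technical, and no group without amputation was analysed here.

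In the embryo, Hox genes with low numbers act near the head and those with high numbers act towards the tail, and along the limb the highest-numbered genes of clusters A and D act furthest out. Hoxa13 and Hoxd13 are needed for the digits to form, Hoxa11 acts in the forearm and lower leg, and Hoxc13 is required for hair and nail keratin genes. Adult skin fibroblasts keep a Hox pattern that reflects where in the body they came from. In mice, a digit tip cut at a distal level of the last bone regrows, whereas one cut at a proximal level does not.

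The 25 genes were not spread evenly over the 39 known protein-coding Hox genes. Of the posterior genes (groups 9 to 13) 14 of 16 were in the table, of the central genes (groups 5 to 8) 8 of 11, and of the anterior genes (groups 1 to 4) 2 of 12. All 9 genes of cluster C (chromosome 15) were present, against 7 of 11 of cluster A (chromosome 6), 5 of 9 of cluster D (chromosome 2) and 3 of 10 of cluster B (chromosome 11). The other 15 genes are not analysed here. Every gene in the table reached 20 in at least 1 library, so the members are those that passed a low-value limit somewhere. Of the 25 members, 13 had a mean of at least 50 over the 24 libraries, and 3 never reached 50.

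The promoters of 3 members of clusters A and D are shown because their transcripts moved together over time, as described below. The sequences run from 250 bases before to 50 bases after an annotated start of each gene. They come from RefSeq on GRCm38.p6, the same assembly as the mm10 build named in the submitters' processing notes. For Hoxd10 this start lies inside the annotated span of the gene (chr2:74684273-74695106) and not at its first base. Capitals mark matches, on either strand, to the promoter element TATAAA, to the element CCAAT, to TAAT, the core that most homeodomains bind, or to TTTATTG, similar to sites of posterior Hox proteins. Of these 4, the CCAAT and TTTATTG letters can overlap when TTTATTG is read on the other strand. The Hoxd13 sequence is chr2:74667975-74668274 on the plus strand, the Hoxd10 sequence is chr2:74691641-74691940 on the plus strand, and the Hoxa13 sequence is chr6:52260831-52261130 on the minus strand.
Hoxd13: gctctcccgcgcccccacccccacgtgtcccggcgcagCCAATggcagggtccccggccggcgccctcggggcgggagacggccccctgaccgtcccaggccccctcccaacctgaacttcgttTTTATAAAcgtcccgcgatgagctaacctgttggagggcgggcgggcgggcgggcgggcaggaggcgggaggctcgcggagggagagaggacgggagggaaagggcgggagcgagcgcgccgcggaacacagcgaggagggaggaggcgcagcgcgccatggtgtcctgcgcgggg
Hoxd10: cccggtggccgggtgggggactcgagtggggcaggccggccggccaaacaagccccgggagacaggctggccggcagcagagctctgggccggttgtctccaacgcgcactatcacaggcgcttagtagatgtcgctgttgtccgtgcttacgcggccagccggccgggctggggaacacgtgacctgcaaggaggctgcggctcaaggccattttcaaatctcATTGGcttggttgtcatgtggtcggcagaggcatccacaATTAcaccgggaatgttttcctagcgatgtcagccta
Hoxa13: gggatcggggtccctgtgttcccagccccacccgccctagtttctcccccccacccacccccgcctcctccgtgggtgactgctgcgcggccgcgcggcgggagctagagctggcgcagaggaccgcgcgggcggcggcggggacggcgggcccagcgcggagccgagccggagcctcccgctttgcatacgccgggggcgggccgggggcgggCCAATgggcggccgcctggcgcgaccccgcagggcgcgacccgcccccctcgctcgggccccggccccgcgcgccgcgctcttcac

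The capitals in the Hoxd13 promoter hold a TATA stretch read on both strands and a CCAAT, those in Hoxd10 hold a CCAAT and a TAAT on the opposite strand, and the one in Hoxa13 is a CCAAT. RefSeq gave 16 promoters for 14 of the Hox members. TATAAA was found in 3 of these 16, against 13.6% of all 32851 promoters in the table, and CCAAT in 7 of 16, against 37.4%. TAAT was in 12 of 16, against 58.0% of all, and TTTATTG in 0 of 16, against 4.6%. The ratio of observed to expected CpG had a median of 0.706 in Hox promoters and 0.384 in all promoters. A match is a description of letters only.

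The deposited values are whole numbers, yet their behaviour is that of normalised and rounded values: the upper quartile of each library lay between 902.5 and 930.5. Read depth per library is therefore unknown, and the table totals, which ranged from 15.3 to 19.4 in units of 1e6, are not depths. Hox genes made up between 0.0234% and 0.0345% of these totals. Differences were tested with limma on log2(value + 1) over all 15055 genes, a gene was called when its Benjamini-Hochberg adjusted p was under 0.05, and each difference is given with its standard error (SE). Marker genes were looked up beside the tissue label. The hind limb factors Pitx1 and Tbx4 were both in the table. No listed marker of mesenchyme, nail, epidermis, bone, cartilage, blood or vessels that was in the table stood at 0 in any library. The same held for the muscle and nerve markers in the table. Only genes that reached 20 in some library could be looked up, so the lack of a 0 does not test the label. In bulk tissue, fewer cells of a type and less RNA per cell cannot be told apart.

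Leaving out replicate 1 of the distal 12-day group moved the Hoxa13 difference at 12 days by over 1.5 times, as given below. This library was the lowest of its group for 7 of the 25 Hox genes, near its 25.9% of all genes, and the highest for 11, against 23.7% of all genes. Other libraries stood at the end of their group as often, with up to 12 Hox genes lowest in distal 12-day replicate 3 and in proximal 12-day replicate 3. The 7 genes it was lowest for were Hoxa11, Hoxa11os, Hoxa13, Hoxd8, Hoxd9, Hoxd11 and Hoxd13, and the 11 it was highest for included 7 HoxC genes. In the same library the muscle gene Acta1 was at 151, against 19 to 30 in the other 3 libraries of its group, and the mesenchyme gene Prrx1 at 1472, against 1770 to 1926. Among proximal 12-day libraries, replicate 1 lay at -25.0 on the second principal component of all genes, against -43.9 to -46.9 for its 3 partners. Results that change without either library are given with both values.

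The most abundant Hox transcript per kilobase of gene length was Hoxc13 (chr15:102921131-102928814), at a mean of 611 per kb over 24 libraries, which is the 93.0th percentile of all genes. Hoxa9 followed at 190.7 per kb, then Hoxc12 at 130.4, Hoxa10 at 106.1 and Hoxc11 at 102.7 per kb. Hoxc13 was above Hoxa9 in 23 of 24 libraries and Hoxa9 above Hoxc12 in 21 of 24. The next steps of the order were less clear: Hoxa10 was above Hoxc11 in 13 of 24 libraries and Hoxa7 above Hoxd13 in 12 of 24. A gap followed Hoxa13 (69.1 per kb), which was above Hoxd8 (33.7 per kb) in 23 of 24 libraries. From Hoxd8 down to Hoxc4 (11.1 per kb) each gene was above its lower neighbour in 10 to 17 of 24 libraries, so that this order holds no clear steps. At the low end stood Hoxd11 at 5.69 per kb and Hoxa3 at 5.33 per kb. The plot of group means shows that the group with the highest level differed between genes: it was distal 14 days for Hoxd13 (159.0 per kb), Hoxa13 (114.1 per kb) and Hoxd10 (24.2 per kb), and proximal 12 days for Hoxc11 (142.4 per kb), Hoxc9 (50.3 per kb) and Hoxc8 (22.3 per kb).

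**Figure D1:**
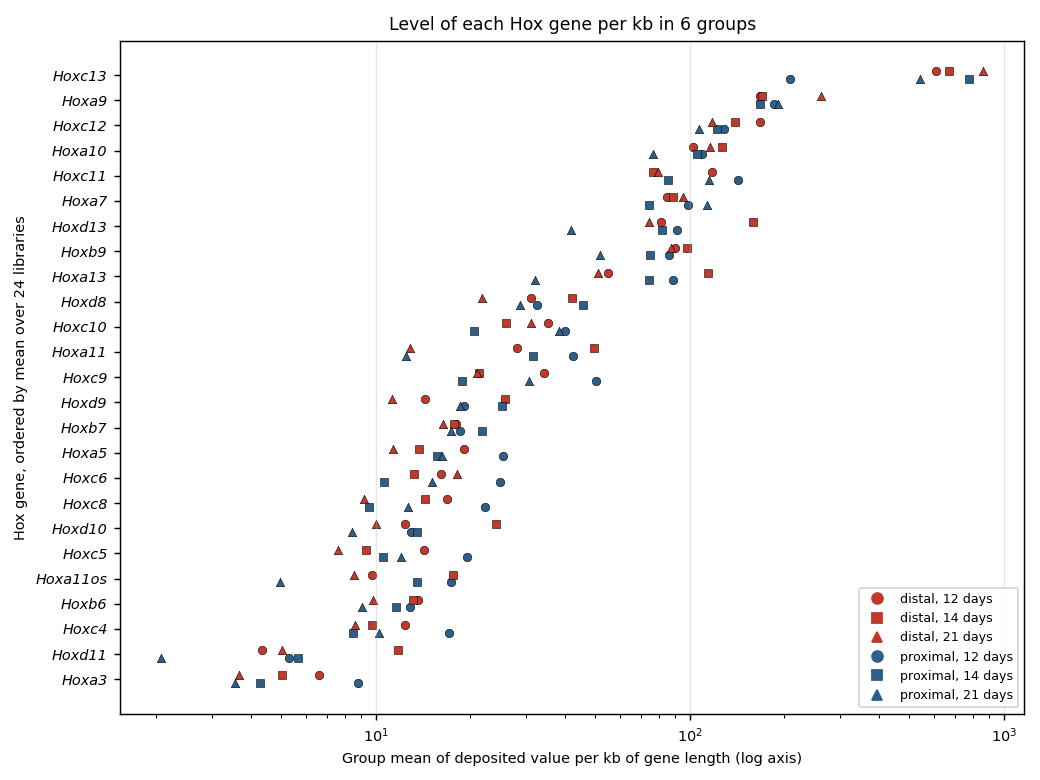
Mean deposited value per kb of gene length (log axis) of each of 25 Hox genes in the 6 groups, with red for distal and blue for proximal amputation and a marker shape for each day; genes run from the highest to the lowest mean over 24 libraries. Hoxc13 is on top at a mean of 611 per kb and Hoxa3 at the bottom at 5.33 per kb.

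At 12 days the clearest difference between the levels was in Hoxc13, which was higher after distal amputation, while Hoxa13, the antisense RNA Hoxa11os and Hoxc9 were lower. In all 4 of 25 Hox genes were called, 1 higher and 3 lower, against a background of 20.3% of all genes called (9.25% higher and 11.0% lower), so the share of Hox genes was near the background. Hoxc13 was at 1201, 1675, 1964 and 1171 in distal libraries, against 731, 496, 359 and 469 in proximal libraries. The 2 groups did not overlap, which held for 1 Hox gene in this direction, against 10.4% of all genes, and for 3 in the other, against 12.6%. The log2 difference of Hoxc13 was 1.56 ± 0.22 (SE, limma adjusted p = 4.67e-05), a 2.95-fold higher value. It kept its call whichever library was left out, between 1.40 and 1.74, and when the 8 libraries of that day were fitted alone. In that smaller fit the other 3 genes lost theirs, with limma adjusted p = 0.0754 for Hoxa13, 0.0572 for Hoxc9 and 0.149 for Hoxa11os.

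Hoxa13 (chr6:52258853-52260880) was at 68, 178, 181 and 116 in distal libraries, against 237, 211, 226 and 202 in proximal libraries at 12 days. Every distal library lay below every proximal one, and the lowest was distal replicate 1. The log2 difference of Hoxa13 was -0.79 ± 0.21 (limma adjusted p = 0.0107), and -0.49 without distal replicate 1 (adjusted p = 0.0365). Hoxa11os was at 7, 27, 59 and 27 in distal libraries, against 61, 43, 58 and 51 in proximal libraries, so that 1 distal library reached the proximal range. Its difference was -1.12 ± 0.36 on the log2 scale (limma adjusted p = 0.031). That call was lost without distal replicate 1 (-0.58, adjusted p = 0.113) and without proximal replicate 1, 3 or 4, with differences between -1.14 and -0.58 in these 4 fits. Hoxa11os overlaps Hoxa11 on chromosome 6 (52245243 to 52249769 and 52242105 to 52245810), and without knowing whether strand was used in counting their reads cannot be told apart. Hoxa11 itself was at 37, 65, 107 and 49 in distal libraries, against 117, 79, 80 and 112 in proximal libraries, and was not called (-0.67 ± 0.24, limma adjusted p = 0.0512).

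In cluster C at 12 days, Hoxc9 (chr15:102977032-102984444) was at 112, 69, 61 and 93 in distal libraries, against 118, 130, 118 and 123 in proximal libraries. The groups did not overlap, and the log2 difference was -0.58 ± 0.16 (limma adjusted p = 0.0142). The call was lost without distal replicate 2 or 3, with -0.50 and -0.44. The other 6 genes from Hoxc4 to Hoxc11 had log2 differences between -0.71 and -0.19, none called. Hoxc12 lies between Hoxc11 and Hoxc13 and was at a log2 difference of 0.38 (limma adjusted p = 0.138). Cluster B had no call, with differences from -0.04 to 0.06, and cluster D none, from -0.41 to -0.06. Hoxd9 did not overlap between the groups, at 23, 30, 35 and 35 in distal libraries against 39, 37, 42 and 45 in proximal libraries, but it was not called (-0.41 ± 0.18, limma adjusted p = 0.117).

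At 14 days Hoxd10 and Hoxd13 were higher after distal amputation, and no Hox gene was called lower. These 2 of 25 genes stand against a background of 5.39% (3.06% higher and 2.32% lower), so the share was near the background, and Hoxd9 averaged 55 in distal and 54 in proximal libraries. Hoxd13 (chr2:74668225-74671603), which patterns the digits, was at 478, 341, 323 and 437 in distal libraries, against 213, 162, 190 and 243 in proximal libraries. The groups were well apart, and the log2 difference was 0.96 ± 0.23 (limma adjusted p = 0.0199, 1.94-fold). Without proximal replicate 2 or 3 it was 0.86 and 0.94 and no longer called. Hoxd10 (chr2:74684273-74695106) was at 45, 48, 37 and 46 in distal libraries, against 22, 22, 35 and 19 in proximal libraries. Only proximal replicate 3 came close to the distal range. With a log2 difference of 0.85 ± 0.21 Hoxd10 was called (limma adjusted p = 0.0238), but without distal replicate 2 or proximal replicate 1, 2 or 4 it was between 0.75 and 0.81 and not called, nor was it when the 8 libraries of that day were fitted alone (adjusted p = 0.0743). The Hoxd10 annotation overlaps that of Hoxd11, so reads of the pair may be shared.

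More genes were apart at 14 days than the test called. In 8 of 25 Hox genes every distal library was above every proximal one, against 6.28% of all genes, and in 0 of 25 every distal library was below, against 5.0%. The 8 genes were Hoxa7, Hoxa10, Hoxa11, Hoxa11os, Hoxa13, Hoxb9, Hoxd10 and Hoxd13. Hoxa13 was at 299, 274, 264 and 291 in distal libraries, against 180, 173, 207 and 172 in proximal libraries (log2 difference 0.62 ± 0.21, limma adjusted p = 0.0836). Hoxa11 was at 107, 104, 108 and 133 in distal libraries, against 75, 64, 74 and 77 in proximal libraries (0.63 ± 0.24, limma adjusted p = 0.126). Both were thus apart in these 8 libraries while missing the threshold set over all genes. Hoxd11 was at 72, 50, 31 and 45 in distal libraries, against 33, 21, 20 and 21 in proximal libraries, with 1 proximal library inside the distal range (1.00 ± 0.35, limma adjusted p = 0.0993). Hoxc13 had no called difference, at 1468, 1734, 1637 and 1762 in distal libraries, against 2138, 1574, 1986 and 1932 in proximal libraries (-0.20 ± 0.22, limma adjusted p = 0.657).

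At 21 days 10 of 25 Hox genes were called, all of them posterior, with 7 higher and 3 lower after distal amputation. The background was 17.6% of all genes (8.22% higher and 9.43% lower). The 7 higher genes were Hoxa9, Hoxa10, Hoxa13, Hoxb9, Hoxc13, Hoxd11 and Hoxd13, and the 3 lower ones Hoxc9, Hoxc11 and Hoxd9. None of the 10 anterior or central genes was called. Their log2 differences ran between -0.65 (Hoxc5) and 0.26, those of Hoxa3 and Hoxb6 changing sign when table totals were used to scale. Some were thus as large as called differences. Posterior genes make up 15 of the 25 members. All anterior and central ones but Hoxa7 and Hoxd8 had a mean under 50 over the 24 libraries. The 3 genes of group 13 were all higher, with log2 differences of 0.65 to 0.78. The 4 genes of group 9 split, with Hoxa9 and Hoxb9 higher and Hoxc9 and Hoxd9 lower. In 4 Hox genes every distal library was above every proximal one, against 8.58% of all genes, and in 3 every one was below, against 10.2%. Fitted on the 8 libraries of that day alone, 6 Hox genes were called, and Hoxc9, Hoxc11, Hoxc13 and Hoxd13 were not, at limma adjusted p from 0.0599 to 0.1. The share of all genes called in that smaller fit is not given here, so its count cannot be set against a background.

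Hoxa9 (chr6:52223097-52227370) was at 1486, 1415, 1405 and 1535 in distal libraries, against 846, 1082, 1241 and 1104 in proximal libraries at 21 days. The groups did not overlap, and the log2 difference was 0.46 ± 0.10 (limma adjusted p = 0.00411). It remained called without any 1 library but was 0.32 and not called when the table totals were used to scale (adjusted p = 0.0584). Hoxb9 (chr11:96271330-96276595), its paralog in cluster B, was at 252, 216, 248 and 183 in distal libraries, against 120, 133, 148 and 131 in proximal libraries. The difference was 0.74 ± 0.12 (limma adjusted p = 0.000315), again with no overlap. Hoxa10 (chr6:52231197-52240854), whose paralog group patterns the thigh segment of the embryonic limb, was at 387, 401, 410 and 318 in distal libraries, against 242, 240, 257 and 262 in proximal libraries. Its log2 difference was 0.59 ± 0.09 (limma adjusted p = 0.000188), and neither Hoxa10 nor Hoxb9 lost its call without any 1 library.

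The lower paralogs of group 9 went the other way at 21 days. Hoxd9 (chr2:74697763-74700208) was at 27, 21, 20 and 28 in distal libraries, against 38, 50, 38 and 32 in proximal libraries. No distal library reached the proximal range, and the log2 difference was -0.69 ± 0.18 (limma adjusted p = 0.0123), called without any 1 library as well. Hoxc9 was at 42, 58, 51 and 53 in distal libraries, against 60, 92, 75 and 72 in proximal libraries, again apart. The difference was -0.54 ± 0.16 (limma adjusted p = 0.0261), and the call was lost without distal replicate 1 or proximal replicate 2 or 3, where it lay between -0.53 and -0.43. Hoxc11 was at 146, 141, 181 and 173 in distal libraries, against 165, 254, 265 and 250 in proximal libraries, so proximal replicate 1 fell inside the distal range. Its log2 difference was -0.52 ± 0.15 (limma adjusted p = 0.0164), and without distal replicate 1 or 2 or proximal replicate 2 or 3 it was between -0.48 and -0.46 and not called.

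Among the digit genes at 21 days, Hoxd13 was at 265, 150, 121 and 201 in distal libraries, against 127, 73, 108 and 108 in proximal libraries. The groups overlapped by 1 library on each side, and the log2 difference was 0.78 ± 0.23 (limma adjusted p = 0.0213). Hoxa13 was at 146, 115, 102 and 140 in distal libraries, against 86, 85, 60 and 88 in proximal libraries, with no overlap (0.65 ± 0.21, limma adjusted p = 0.0351). Both calls were lost without distal replicate 1 or 4 or proximal replicate 2, and that of Hoxa13 also without proximal replicate 3 and with table totals (0.51, adjusted p = 0.0636). In those fits Hoxd13 was between 0.59 and 0.72 and Hoxa13 between 0.52 and 0.69. Hoxd11 was at 15, 24, 17 and 29 in distal libraries, against 17, 7, 6 and 5 in proximal libraries, where replicate 1 alone reached the distal range (1.29 ± 0.35, limma adjusted p = 0.015). Without proximal replicate 4 it was 1.10 and not called.

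Hoxc13 at 21 days was at 1891, 1880, 1517 and 3185 in distal libraries, against 1418, 871, 1573 and 1457 in proximal libraries. The distal group was spread widely and its lowest library lay under the highest proximal one. The log2 difference of 0.65 ± 0.22 was just past the threshold (limma adjusted p = 0.0487). It was lost without distal replicate 1, 2 or 4 or proximal replicate 1, 2 or 4, between 0.43 and 0.71. It was also lost with table totals (0.51, adjusted p = 0.0597) and when only the 8 libraries compared were fitted (adjusted p = 0.1).

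**Figure D2:**
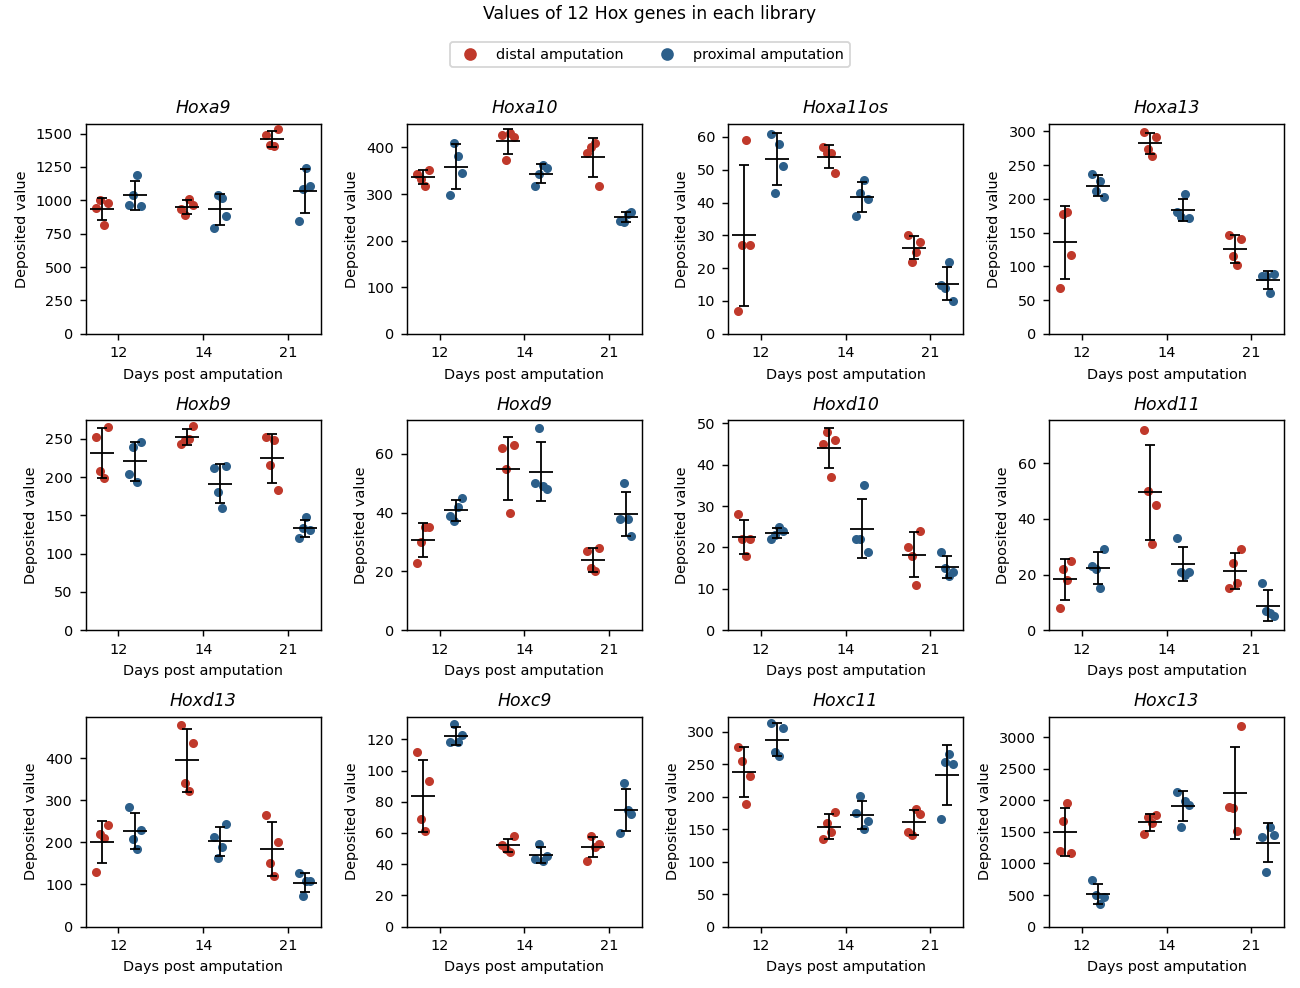
Deposited value of 12 Hox genes in each of the 24 libraries by day after amputation, red for distal and blue for proximal, with bars at the group mean ± SD (n = 4 each). The 4 distal libraries of Hoxd13 at 14 days, 323 to 478, lie above the 4 proximal ones, 162 to 243, and the 4 distal libraries of Hoxc13 at 12 days, 1171 to 1964, above the 4 proximal ones, 359 to 731.

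**Figure D3:**
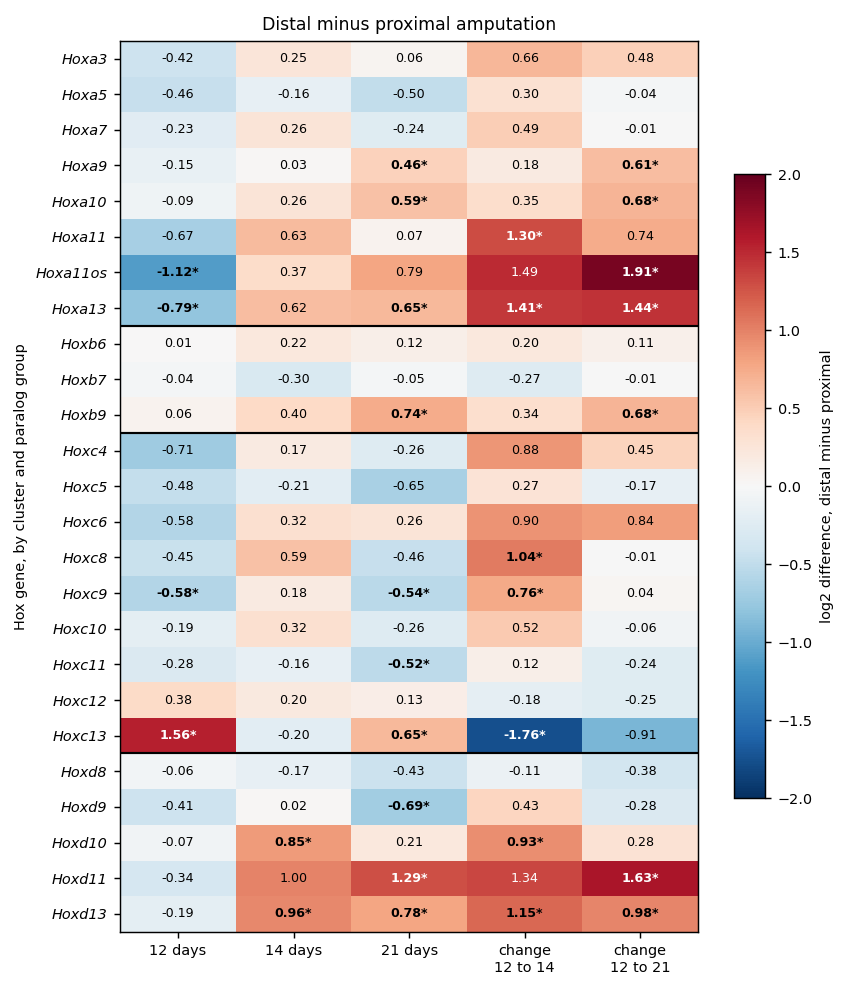
Log2 differences, distal minus proximal, of 25 Hox genes at 12, 14 and 21 days, and the difference between the levels in the change over 12 to 14 and 12 to 21 days; colour gives the size and an asterisk a limma adjusted p under 0.05. Hoxc13 at 12 days, 1.56, is the deepest red of the first column, and in the 21-day column all 3 genes of group 13 carry an asterisk.

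Over time after distal amputation, Hoxa11, Hoxa11os, Hoxa13, Hoxd9, Hoxd10, Hoxd11 and Hoxd13 were called higher at 14 than at 12 days and lower again at 21 days. Both comparisons use the same distal 14-day libraries, so the rise and the fall are not independent results. Between 12 and 14 days 10 of 25 Hox genes were called, 8 higher and 2 lower at 14 days, against a background of 19.4% (11.2% higher and 8.12% lower). The 8 that rose were Hoxa10, Hoxa11, Hoxa11os, Hoxa13, Hoxd9, Hoxd10, Hoxd11 and Hoxd13, and the 2 that fell were Hoxc9 and Hoxc11. In 6 Hox genes every library at 14 days was above every one at 12 days, against 11.9% of all genes, and in 2 every one was below, against 8.77%. Cluster D had 4 of 5 genes higher with a median log2 change of 0.95, cluster A 4 of 8 with a median of 0.19, and cluster C 0 of 9 with a median of -0.26, where the median of all genes was 0.01. No called direction changed under another scaling, while the uncalled Hoxa9 changed sign with table totals.

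Hoxa13 averaged 282 ± 15.9 at 14 days and 135.8 ± 54.2 at 12 days (SD, n = 4 each), a log2 change of 1.15 ± 0.21 (limma adjusted p = 0.000634). The 4 libraries at 14 days lay above those at 12 days. Hoxd13 averaged 394.8 ± 74.7 at 14 days and 200.8 ± 48.9 at 12 days, a change of 0.99 ± 0.23 (limma adjusted p = 0.00407). Hoxd10 averaged 44 ± 4.83 at 14 days and 22.5 ± 4.12 at 12 days (0.95 ± 0.21, limma adjusted p = 0.00337), and Hoxd9 55 ± 10.6 and 30.8 ± 5.68 (0.82 ± 0.18, limma adjusted p = 0.00338). These 4 genes, Hoxd11 (1.44 ± 0.35, limma adjusted p = 0.00655) and Hoxa11 (0.90 ± 0.24, limma adjusted p = 0.0104) kept their calls without any 1 library. When the 8 distal libraries of these days were fitted alone, Hoxa11, Hoxa11os and Hoxc9 lost theirs (limma adjusted p = 0.0554, 0.143 and 0.0555). Without distal 12-day replicate 1 the changes were 0.86 for Hoxa13, 0.80 for Hoxd13, 1.11 for Hoxd11 and 0.68 for Hoxa11. Hoxa11os rose by 1.15 ± 0.36 (limma adjusted p = 0.0279), but the call was lost without that library (0.61) and without 14-day replicate 1, 2 or 3, with up to 1.14. Hoxa10 rose by 0.30 ± 0.09 (limma adjusted p = 0.025), lost without 12-day replicate 2 or 3 or 14-day replicate 1, 3 or 4, between 0.27 and 0.29, and with table totals (adjusted p = 0.141). The 2 genes that fell were Hoxc9, averaging 52 ± 4.32 at 14 days and 83.8 ± 23.2 at 12 days (-0.64 ± 0.16, limma adjusted p = 0.00784), and Hoxc11, averaging 154 ± 18.7 and 237.8 ± 38.1 (-0.62 ± 0.15, limma adjusted p = 0.0049). Without 12-day replicate 1 they were at -0.49 and -0.54 and still called.

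From 14 to 21 days after distal amputation most of the genes that had risen were called lower again. Hoxa10 alone was not called, averaging 379 ± 41.8 at 21 days and 413 ± 27.1 at 14 days (SD, n = 4 each). Between 14 and 21 days 10 of 25 Hox genes (40.0%) were called, 1 higher and 9 lower at 21 days, against 34.8% of all genes (13.3% higher and 21.5% lower). The groups did not overlap in 8 of 25 Hox genes, against 31.0% of all genes, so this share was near the background. Of these, 7 were lower, against 19.5% of all genes, and 1 was higher, against 11.5%. All 5 genes of cluster D fell, by log2 changes of -1.27 to -0.92, together with Hoxa11, Hoxa11os, Hoxa13 and Hoxc8. Hoxa11 averaged 29.5 ± 5.07 at 21 days and 113 ± 13.4 at 14 days, with a change of -1.91 ± 0.24 (limma adjusted p = 3.35e-06), the largest fall of any Hox gene in this comparison. Hoxa9 was the 1 gene that rose, averaging 1460 ± 61.5 at 21 days and 948.5 ± 52.3 at 14 days (0.62 ± 0.10, limma adjusted p = 7.97e-05). Of the 10 calls, 3 rested on single libraries. Hoxc8 (-0.62, limma adjusted p = 0.0472) was lost without 14-day replicate 2, 3 or 4 or 21-day replicate 1, 3 or 4 (-0.67 to -0.49), and also with median-ratio factors, a pseudocount of 8 or the compared groups alone (adjusted p from 0.0504 to 0.0679). Hoxa11os (-1.02, limma adjusted p = 0.0317) was lost without 14-day replicate 1, 2 or 3 or 21-day replicate 2, 3 or 4 (-1.05 to -0.94). Hoxd11 (-1.17, limma adjusted p = 0.0131) was lost without 14-day replicate 1 (-0.97).

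The distal groups at 21 and 12 days differed in 8 of 25 Hox genes, 1 higher and 7 lower at 21 days, against 23.8% of all genes (8.81% higher and 15.0% lower). These groups did not overlap in 6 of 25 Hox genes, against 23.9% of all genes, so this share was near the background. Of these, 5 were lower, against 14.9% of all genes, and 1 was higher, against 9.01%. Hoxd13 averaged 184.2 ± 63.2 at 21 days and 200.8 ± 48.9 at 12 days and was not called (-0.15 ± 0.23, limma adjusted p = 0.676). Hoxa13 averaged 125.8 ± 20.8 at 21 days and 135.8 ± 54.2 at 12 days (-0.02 ± 0.21, limma adjusted p = 0.952). Hoxa9 was higher (0.64 ± 0.10, limma adjusted p = 0.000117) and Hoxa11 lower (-1.01 ± 0.24, limma adjusted p = 0.00389), as were Hoxc9 (-0.67 ± 0.16, limma adjusted p = 0.0043) and Hoxc11 (-0.56 ± 0.15, limma adjusted p = 0.00741). The calls of Hoxa3, Hoxc5, Hoxc8 and Hoxc12 were all lost without 12-day replicate 1, with -0.70, -0.58, -0.64 and -0.43. Without 21-day replicate 4 Hoxa3, Hoxc5 and Hoxc8 were lost, at values no further from 0 than -0.79. Hoxa3 and Hoxc5 were also lost without 12-day replicate 4. Single losses followed 21-day replicate 3 for Hoxa3 and 21-day replicate 1 for Hoxc5. Hoxc12 was lost without 12-day replicate 3 or 4 or 21-day replicate 1, 2 or 3 as well (-0.55 to -0.37). Hoxc5, Hoxc8 and Hoxc12 also lost their calls when the 8 distal libraries were fitted alone (limma adjusted p = 0.0638, 0.0622 and 0.0559).

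After proximal amputation the first change was in cluster C. Between 12 and 14 days 8 of 25 Hox genes were called, 1 higher and 7 lower at 14 days, against 15.2% of all genes (7.35% higher and 7.84% lower). The 7 that fell were Hoxa3, Hoxc5, Hoxc6, Hoxc8, Hoxc9, Hoxc10 and Hoxc11, and the 1 that rose was Hoxc13. Of the 7 genes from Hoxc4 to Hoxc11, 6 fell, with log2 changes of the 7 between -1.40 and -0.74 and a median of -1.02, against -0.01 for all genes. These 7 genes were grouped after their values were seen. No gene of cluster D or B was called, and the uncalled Hoxd10 changed sign with table totals. In 10 Hox genes every library at 14 days was below every one at 12 days, against 9.7% of all genes, and in 3 every one was above, against 8.4%.

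Hoxc9 averaged 45.8 ± 4.99 at 14 days and 122.2 ± 5.68 at 12 days after proximal amputation, a log2 change of -1.40 ± 0.16 (limma adjusted p = 1.61e-05). No library of the 14-day group came near the 12-day group. Hoxc8 averaged 27 ± 8.04 at 14 days and 63.2 ± 10.3 at 12 days (-1.22 ± 0.24, limma adjusted p = 0.00149), and Hoxc11 172.2 ± 21.7 and 287.8 ± 25.5 (-0.74 ± 0.15, limma adjusted p = 0.00155). Hoxc6 changed by -1.15 ± 0.28 (limma adjusted p = 0.00738), Hoxa3 by -1.04 ± 0.26 (limma adjusted p = 0.00989) and Hoxc10 by -0.96 ± 0.26 (limma adjusted p = 0.0134). The Hoxa3 annotation (52169059 to 52213067 on chromosome 6) spans Hoxa5 and other genes of the cluster, so its reads may be shared. Without proximal 12-day replicate 1 these changes were -0.94, -0.91 and -0.87, and all were still called. Hoxc5 (-0.84 ± 0.25, limma adjusted p = 0.0275) was lost without 12-day replicate 2 or 14-day replicate 3 or 4 (-0.82 to -0.64). Hoxc13 moved the other way, averaging 1908 ± 239 at 14 days and 513.8 ± 156 at 12 days, a change of 1.93 ± 0.22 (limma adjusted p = 1.61e-05), and 2.11 without 12-day replicate 1.

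Between 14 and 21 days after proximal amputation 13 of 25 Hox genes were called, 4 higher and 9 lower at 21 days, against 28.7% of all genes (12.5% higher and 16.3% lower). The 9 that fell were Hoxa10, Hoxa11, Hoxa11os, Hoxa13, Hoxb9, Hoxd8, Hoxd10, Hoxd11 and Hoxd13. The 4 that rose were Hoxa7, Hoxc9, Hoxc10 and Hoxc11. Hoxa13 averaged 79.8 ± 13.2 at 21 days and 183 ± 16.4 at 14 days (-1.20 ± 0.21, limma adjusted p = 0.000216). Hoxd13 averaged 104 ± 22.5 at 21 days and 202 ± 34.4 at 14 days (-0.96 ± 0.23, limma adjusted p = 0.00316). Hoxb9 averaged 133 ± 11.5 at 21 days and 191.8 ± 26 at 14 days (-0.52 ± 0.12, limma adjusted p = 0.00286). The falls of these genes were thus past the spread between libraries. In the other direction, Hoxc9 averaged 74.8 ± 13.2 at 21 days and 45.8 ± 4.99 at 14 days (0.69 ± 0.16, limma adjusted p = 0.00308).

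Of these 13 calls 4 depended on single libraries. Hoxc10 (0.82 ± 0.26, limma adjusted p = 0.0207) was lost without 14-day replicate 2 or 21-day replicate 2 or 4 (0.65 to 0.70). Hoxc11 (0.42 ± 0.15, limma adjusted p = 0.0341) was lost without 14-day replicate 1, 3 or 4 or 21-day replicate 2, 3 or 4 (0.35 to 0.43). Hoxd8 (-0.65 ± 0.21, limma adjusted p = 0.0233) was lost without 14-day replicate 2 or 3 or 21-day replicate 4 (-0.63 to -0.59). Hoxd10 (-0.63 ± 0.21, limma adjusted p = 0.0307) was lost without 14-day replicate 3 or 21-day replicate 2, 3 or 4 (-0.62 to -0.45). With table totals Hoxd8 and Hoxd10 were not called (adjusted p = 0.0507 and 0.0591), and with the 8 proximal libraries alone neither were Hoxc10, Hoxc11 and Hoxd10 (adjusted p from 0.0686 to 0.0912).

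Across the whole proximal series, 12 of 25 Hox genes differed between 21 and 12 days, 1 higher and 11 lower at 21 days, against 29.0% of all genes (12.0% higher and 17.0% lower). Hoxc13 was the 1 higher gene, averaging 1330 ± 313 at 21 days and 513.8 ± 156 at 12 days (1.38 ± 0.22, limma adjusted p = 8.95e-05). The 11 lower genes were Hoxa3, Hoxa10, Hoxa11, Hoxa11os, Hoxa13, Hoxb9, Hoxc8, Hoxc9, Hoxd10, Hoxd11 and Hoxd13. Hoxa11 changed by -1.74 ± 0.24 (limma adjusted p = 1.12e-05) and Hoxa13 by -1.46 ± 0.21 (limma adjusted p = 2.08e-05). Hoxc8 (-0.80) was lost without 12-day replicate 2 (-0.70), and Hoxd10 (-0.60) without any 12-day library or 21-day replicate 2, 3 or 4 (-0.63 to -0.54).

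**Figure D4:**
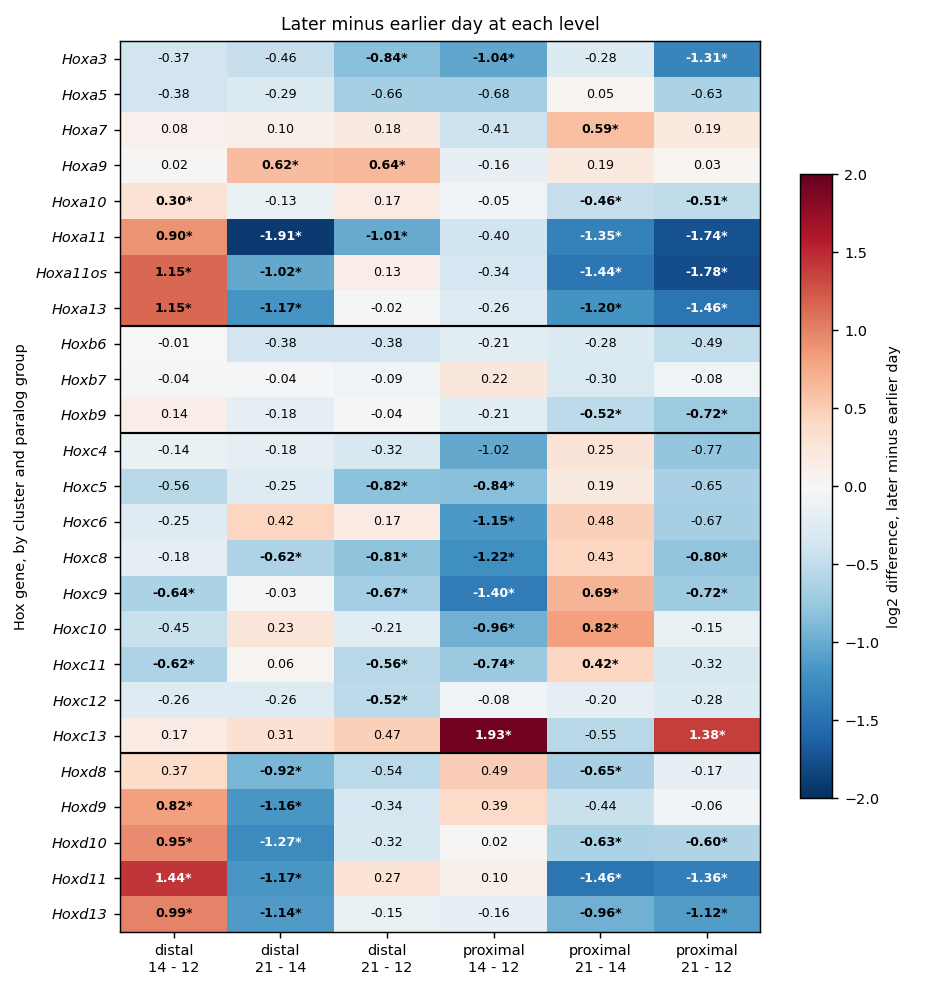
Log2 change of 25 Hox genes between days after distal amputation (3 left columns) and proximal amputation (3 right columns), later minus earlier day, with an asterisk for a limma adjusted p under 0.05. In the second column all 5 HoxD genes are blue, at -1.27 to -0.92, and in the fourth column the genes from Hoxc4 to Hoxc11 are blue, at -1.40 to -0.74, above a red Hoxc13 at 1.93.

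The levels also differed in how Hox genes changed. From 12 to 14 days the change differed between distal and proximal amputation in 7 of 25 Hox genes, against 11.7% of all genes (6.61% higher and 5.08% lower). The difference, distal change minus proximal change, was 1.41 ± 0.30 for Hoxa13 (limma adjusted p = 0.00405) and 1.30 ± 0.34 for Hoxa11 (limma adjusted p = 0.0151). For Hoxd13 it was 1.15 ± 0.32 (limma adjusted p = 0.0232), lost without replicate 1 of either 12-day group (0.96 and 1.04). For Hoxc13 it was -1.76 ± 0.32 (limma adjusted p = 0.0013), the 1 called gene with a negative difference: its log2 difference between the days was 0.17 after distal (not called) and 1.93 after proximal amputation. Hoxa13, Hoxa11 and Hoxc13 kept their calls without any 1 library.

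The other 3 calls of that comparison were Hoxc8 (1.04), Hoxc9 (0.76) and Hoxd10 (0.93), with limma adjusted p from 0.0329 to 0.0484. Each was lost without any of 7 or more libraries. For Hoxc8 these were distal 12-day and 14-day replicates 2, 3 and 4, proximal 12-day replicates 1, 2 and 4 and proximal 14-day replicates 1, 3 and 4 (0.79 to 1.10). For Hoxc9 they were distal 12-day replicates 2 and 3, distal 14-day replicate 4, proximal 12-day replicates 2 and 4 and proximal 14-day replicates 1 and 3 (0.63 to 0.76). For Hoxd10 they were distal 12-day replicates 2, 3 and 4, distal 14-day replicates 1, 2 and 4, every proximal 12-day library and proximal 14-day replicates 1, 2 and 4 (0.82 to 0.96). Hoxc8 and Hoxd10 were also lost with median-ratio factors (adjusted p = 0.0566 and 0.0549), Hoxc8 with table totals (0.0566) and compared groups alone (0.0787), and Hoxd10 with the replicate number as a block (0.0595).

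From 12 to 21 days the change differed in 7 of 25 Hox genes, all more positive after distal amputation, against 14.8% of all genes (7.42% in each direction). Hoxa10 differed by 0.68 ± 0.13 (limma adjusted p = 0.00117), Hoxa13 by 1.44 ± 0.30 (limma adjusted p = 0.00217) and Hoxa9 by 0.61 ± 0.15 (limma adjusted p = 0.00639). Hoxb9 differed by 0.68 ± 0.17 (limma adjusted p = 0.00922) and Hoxa11os by 1.91 ± 0.51 (limma adjusted p = 0.0141). These 5 were called without any 1 library, Hoxa11os at 1.36 without distal 12-day replicate 1, while Hoxa9 was lost when table totals were used to scale (0.52, adjusted p = 0.0543). Hoxd11 (1.63 ± 0.50, limma adjusted p = 0.0301) was lost without distal 12-day replicate 1, distal 21-day replicate 2 or 4, proximal 12-day replicate 4 or proximal 21-day replicate 2, 3 or 4 (1.30 to 1.59). Hoxd13 (0.98 ± 0.32, limma adjusted p = 0.0445) was lost without distal 12-day replicate 1 or 3, distal 21-day replicate 1 or 4, proximal 12-day replicate 1, 2 or 4 or proximal 21-day replicate 2, 3 or 4 (0.78 to 1.01). With compared groups alone both were lost (adjusted p = 0.0519 and 0.0708), and Hoxd13 also with table totals (0.88, adjusted p = 0.0539). All 7 are posterior genes, as are 15 of the 25 members, and 4 of the 7 are in cluster A, which holds 8 members. From 14 to 21 days limma called 0 of 25 Hox genes, against 1.9% of all genes, while 8 of 25 had an unadjusted p under 0.05, against 19.4% of all genes, and 1 was called with table totals. Hoxa5, Hoxb6, Hoxb7 and Hoxc4 were not called in any of the 12 comparisons, and their group means ran over 21.2 to 47.8, 17.8 to 26.8, 25.2 to 33.8 and 21.8 to 44.0.

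Paralog pairs were compared by the ratio of their values, with 1 added to each, so that a scaling of the library cancels only in part where values are low. Over 19 pairs within a paralog group and 3 days, 57 log2 ratios were tested between distal and proximal libraries with a two-sided exact permutation test. With 4 libraries against 4 the smallest possible p is 0.0286, and 12 of the 57 reached it, 3 at 12 days, 4 at 14 days and 5 at 21 days. After Benjamini-Hochberg adjustment over the 57 the smallest value was 0.136, so none passed 0.05.

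At 21 days the log2 ratio of Hoxa9 to Hoxd9 was 5.88 ± 0.18 in distal libraries and 4.73 ± 0.35 in proximal libraries (SD, n = 4 each), without overlap (exact permutation p = 0.0286). The ratio of Hoxb9 to Hoxc9 was 2.12 ± 0.36 in distal libraries and 0.84 ± 0.21 in proximal libraries, also without overlap. The ratios of Hoxa9 to Hoxc9 and of Hoxb9 to Hoxd9 did not overlap at 21 days either. In group 9 the A and B members were thus higher relative to the C and D members in every distal library of that day. At 12 days only the ratio of Hoxb9 to Hoxc9 was apart between the levels, and at 14 days none of these was. The ratios come from the same libraries as the calls above and are no separate support for them. In group 13 the ratio of Hoxa13 to Hoxc13 was -3.53 ± 0.41 in distal libraries and -1.18 ± 0.39 in proximal libraries at 12 days, and -2.54 ± 0.17 and -3.37 ± 0.18 at 14 days. The order of the levels was thus opposite on these 2 days, again with no overlap on either. Hoxa11 relative to Hoxc11 was at -0.44 ± 0.12 in distal libraries and -1.23 ± 0.28 in proximal libraries at 14 days.

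The cofactors of Hox proteins are TALE homeodomain proteins of the Meis, Pbx and Pknox families, and values of 7 genes are given here. At 12, 14 and 21 days 0, 0 and 1 of the 7 were called higher and 2, 2 and 2 lower after distal amputation, where 20.3%, 5.39% and 17.6% of all genes were called. Meis1, which marks proximal identity in the embryonic limb, averaged 565.8 ± 103, 260 ± 27.4 and 306.8 ± 57.8 in distal libraries at 12, 14 and 21 days, against 840 ± 78.4, 374.8 ± 55.8 and 443.8 ± 40.9 in proximal libraries (SD, n = 4 each). Its log2 difference was -0.58, -0.52 and -0.55 (SE 0.14 each, limma adjusted p = 0.00463, 0.0311 and 0.00944). Meis2 was lower on the same days, by -0.93, -0.89 and -0.78 (SE 0.24 each, limma adjusted p = 0.00888, 0.0342 and 0.0279). At 21 days Meis3 was higher (0.68 ± 0.23, limma adjusted p = 0.0433). Pbx2, Pbx3, Pknox1 and Pknox2 had no call on any day. Meis1 also fell between 12 and 14 days at both levels, by -1.11 ± 0.14 after distal (limma adjusted p = 1.64e-05) and -1.17 ± 0.14 after proximal amputation (limma adjusted p = 1.61e-05).

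Of 19 genes for chromatin regulators of Hox clusters, from the Polycomb and Trithorax groups and their partners, all were in the table. At 12 days 1 was called higher and 3 lower after distal amputation, at 14 days 0, and at 21 days 1 lower. The shares were thus no more than about the 20.3% and 17.6% of all genes called at 12 and 21 days. At 12 days the higher one was Wdr5, a subunit of the H3K4 methyltransferase complexes (0.31 ± 0.07, limma adjusted p = 0.00176). The 3 lower ones were the H3K27 methyltransferase Ezh1 (-0.38 ± 0.07, limma adjusted p = 0.000381), the Polycomb reader Cbx7 (-0.45 ± 0.16, limma adjusted p = 0.049) and the H3K27 demethylase Kdm6a (-0.24 ± 0.08, limma adjusted p = 0.0421). At 21 days the boundary factor Ctcf was lower by -0.19 ± 0.06 (limma adjusted p = 0.0236). Of 12 listed noncoding RNAs of the Hox clusters Hotair, which lies in cluster C, was the 1 in the table, and it was not called between the levels on any day (-0.25, 0.01 and -0.21).

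Mesenchyme markers moved in several of the same comparisons as Hoxa11, Hoxa11os, Hoxa13, Hoxd10, Hoxd11 and Hoxd13. These Hox genes were grouped after their values were seen, so their match with the markers is in part built in by that choice. Other posterior HoxA and HoxD genes went another way in part. Hoxa9 rose between 14 and 21 days after distal amputation (0.62), and Hoxd9 was lower after distal amputation at 21 days (-0.69). All 9 listed markers of limb mesenchyme and dermis were in the table. After distal amputation 7 of 9 rose between 12 and 14 days, against 11.2% of all genes, and 8 of 9 fell between 14 and 21 days, against 21.5%. After proximal amputation 0 rose and 1 fell between 12 and 14 days, where 7.35% of all genes rose and 7.84% fell. Between 14 and 21 days 7 fell, against 16.3% of all genes. Between the levels 0, 2 and 4 of the 9 were higher and 5, 0 and 1 lower after distal amputation at 12, 14 and 21 days. Of all genes 9.25%, 3.06% and 8.22% were higher and 11.0%, 2.32% and 9.43% lower. Prrx1 differed by -0.50, 0.52 and 0.55 on these days (SE 0.10 each, limma adjusted p = 0.000976, 0.00644 and 0.000651). The summed level of the 9 markers per kb ranged over 29164 to 49864, 62709 to 109084 and 21321 to 29095 in distal libraries at 12, 14 and 21 days, and over 55777 to 75248, 63753 to 94218 and 15968 to 24557 in proximal libraries. Among the other lists, the 2 hind limb factors both rose between 12 and 14 days after distal amputation, and 2 of 6 osteoblast markers rose. Over these days after proximal amputation 2 of 6 osteoblast and 2 of 3 endothelial markers also rose, and 0 of 2 hind limb factors did. Hoxc13 was there the 1 Hox gene called higher. Between 14 and 21 days Hoxa11, Hoxa11os, Hoxa13, Hoxd10, Hoxd11 and Hoxd13 were called lower at both levels. Over these days osteoblast markers fell in 6 of 6 after distal (median log2 change -3.01) and 5 of 6 after proximal amputation (-2.12). Endothelial markers fell in 3 of 3 at both levels (medians -1.21 and -1.01). Blood and marrow markers fell in 5 of 8 after distal and 3 of 8 after proximal amputation (medians -1.31 and -0.68). Over the same days 21.5% of all genes fell after distal and 16.3% after proximal amputation. The part of these cell types in the Hox differences was not tested.

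Nail markers moved with Hoxc13. Of 14 listed genes of the nail and hair matrix 13 were in the table. After distal amputation 12, 1 and 12 of them were higher at 12, 14 and 21 days, with none lower. Of all genes 9.25%, 3.06% and 8.22% were called higher on these days. After proximal amputation 12 of 13 rose between 12 and 14 days, against 7.35% of all genes. The hard keratin Krt31 differed by 3.15 ± 0.41 at 12 days (limma adjusted p = 1.49e-05), by -0.07 at 14 days (limma adjusted p = 0.949) and by 1.61 ± 0.41 at 21 days (limma adjusted p = 0.0103). Foxn1, a transcription factor of the hair and nail matrix, differed by 1.24 ± 0.26 at 12 days (limma adjusted p = 0.0022), 0.06 at 14 days (limma adjusted p = 0.928) and 1.07 ± 0.26 at 21 days (limma adjusted p = 0.0085). The summed level of the 13 genes per kb was 91724 to 146572, 112835 to 227001 and 151855 to 412685 in distal libraries at 12, 14 and 21 days, and 12067 to 43436, 93488 to 275111 and 38540 to 111322 in proximal libraries. The part of nail tissue in the Hoxc13 differences was not tested.

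Other marker lists differed as well, where 20.3%, 5.39% and 17.6% of all genes were called between the levels at 12, 14 and 21 days. Cycling markers (3 of 3 in the table) were all higher after distal amputation at 12 days and all lower at 21 days, with no call at 14 days. Of 6 epidermis markers 0, 0 and 1 were called at 12, 14 and 21 days, the last lower. Over time after distal amputation, 2 of these 6 fell between 12 and 14 days (median log2 change -0.45), against 8.12% of all genes. Another change was a rise of 2 of 6 between 14 and 21 days (median 0.34), against 13.3% of all genes. After proximal amputation 1 of 6 fell between 12 and 14 days, against 7.84% of all genes, and 0 were called between 14 and 21 days. Of 10 blood and marrow markers 8 were in the table, of which none was called at 12 or 14 days and 1 was higher and 1 lower at 21 days. Of 6 osteoblast markers 1 was higher at 14 days, and none was called at 12 or 21 days. Of 3 cartilage markers 1 was higher and 2 lower at 12 days, and 1 of the 3 muscle markers present was higher at 12 days. The ventral ectoderm gene En1 was higher at 14 and 21 days, and no endothelial or nerve marker was called between the levels. The 3 listed lymphocyte markers and the fore limb factor Tbx5 are not analysed here.

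**Figure D5:**
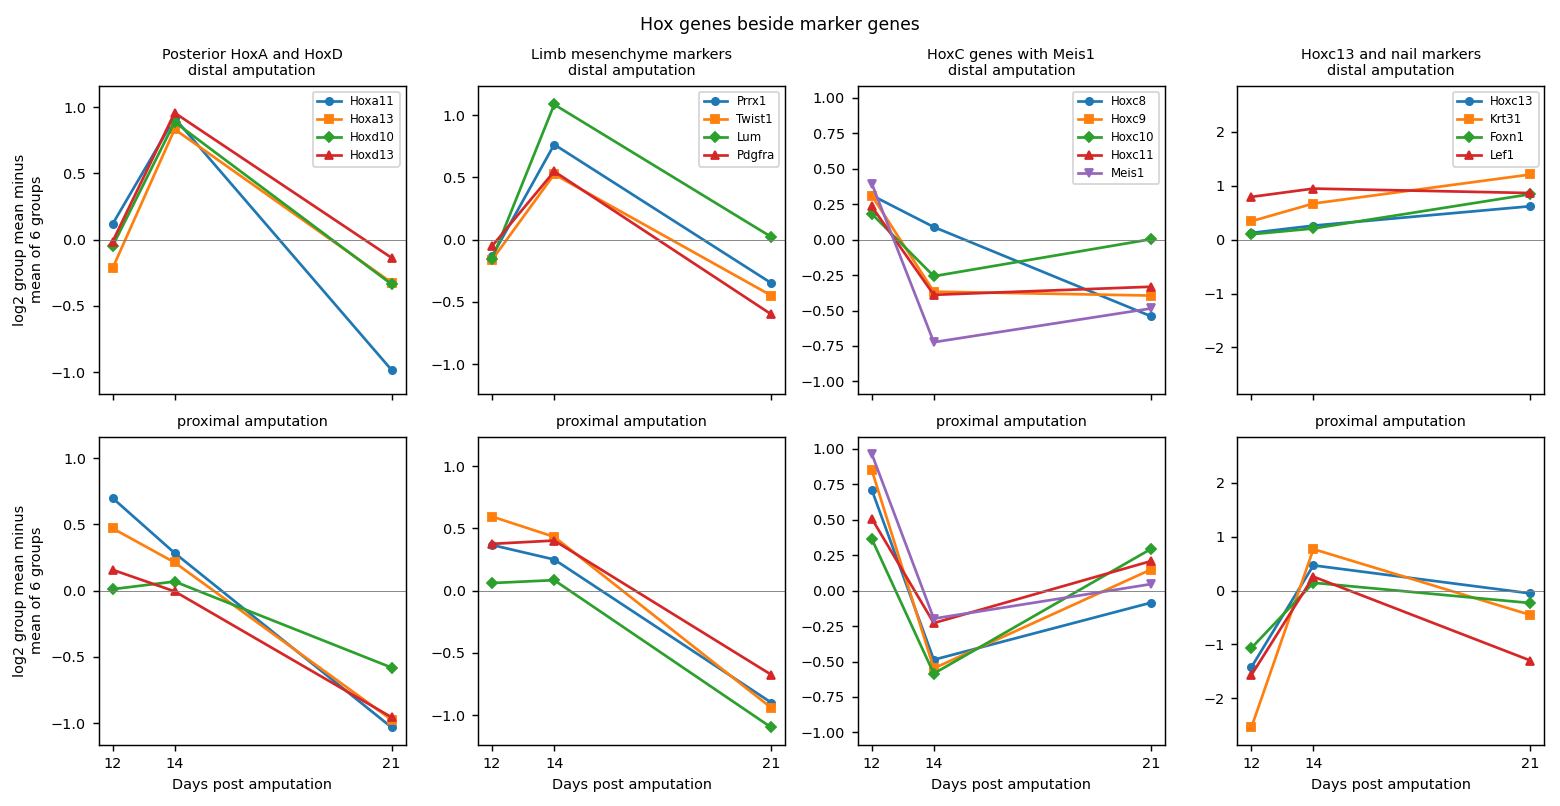
Log2 group mean minus the mean of the 6 groups against days after amputation, for distal amputation (top) and proximal amputation (bottom). Each panel holds picked genes, and other members of its set are not drawn. From left to right these are Hoxa11, Hoxa13, Hoxd10 and Hoxd13, then the mesenchyme markers Prrx1, Twist1, Lum and Pdgfra. Next are Hoxc8, Hoxc9, Hoxc10 and Hoxc11 with Meis1, and last Hoxc13 with the nail markers Krt31, Foxn1 and Lef1. Hoxa9, which rose between 14 and 21 days after distal amputation, and Hoxa10 are not drawn. The top left panel peaks at 14 days and the bottom right panel has its lowest points at 12 days, where Hoxc13 averaged 513.8 after proximal amputation.

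The genes most like Hoxc13 over the 24 libraries were the hair and nail keratins Krt82 (Pearson's r = 0.97 on log2 values), Krt31 (0.96) and Krt87 (0.95), with the protease gene Tmprss11c (0.96) and the hair desmosome gene Dsg4 (0.95). Among the genes most like Hoxd13 were Tuba1a (0.89), Zeb2 (0.89), Lum (0.89) and Loxl3 (0.88). These 24 libraries form 6 groups and share their tissue makeup, so the correlations are descriptions. Krt82 averaged 1616 ± 311, 1761 ± 319 and 2054 ± 914 in distal libraries at 12, 14 and 21 days, and 243.2 ± 149, 2222 ± 279 and 1099 ± 270 in proximal libraries. The small proteoglycan Lum averaged 9577 ± 2284, 22619 ± 3506 and 10816 ± 2846 in distal libraries on these days, and 11114 ± 1315, 11292 ± 1578 and 4970 ± 1058 in proximal libraries. As for Hoxd13, the highest group was distal 14 days and the lowest proximal 21 days.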

How the data were processed

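Total RNA depleted of ribosomal RNA was sequenced from 24 libraries in 6 groups of 4. Per the submitters' processing notes, cutadapt, STAR 2.5.4b, Subread, featureCounts 1.6.3 and the mm10 build were used, with strand use not given in the sources used here. The deposited table holds whole numbers treated here as a score, because its values look normalised and rounded: along 1 direction, 9650 genes above 100 in every library varied 6.71 times less than read counting allows. A count test was therefore not used. The table has no columns outside these libraries, and no pair of libraries was a duplicate, since at least 14813 genes differed between any pair.

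Values were analysed as log2(value + 1) with limma 3.58.1 in R 4.3.3, with 6 group means, an intensity trend, 18 residual and 3.91 prior degrees of freedom, and Benjamini-Hochberg adjustment over 15055 genes. The script was tested on simulated data. Levels per kb use the length column of the table, and gene positions and promoters are from RefSeq GRCm38.p6. Alternatives were median-ratio factors, table totals, pseudocounts of 0.5 and 8, a mean of at least 50, compared groups only, a replicate block and leaving out each library. Any Hox gene could be named, and those called between the levels, or in the change between them, were given by library first. Beyond them the text names members of the lists below and the 5 genes most correlated with Hoxc13 and with Hoxd13, of which some are not reported here. The members and the lists of cofactors, regulators and cell type markers were chosen with earlier results of these data known. The comparisons of the 12 to 14 and 14 to 21 day changes were added after seeing the data.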

Additional observations from a re-analysis of the deposited data

Results flagged for a closer look

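In 11 of 150 sets of 4 libraries (25 genes in 6 groups) 1 library lay far from the other 3, where chance gives about 1 in 20. After distal amputation these were Hoxa10 in 14-day replicate 2 (373, others 422 to 432), Hoxa11 in 14-day replicate 4 (133, others 104 to 108), Hoxc6 in 21-day replicate 1 (27, others 49 to 50) and Hoxd8 in 21-day replicate 3 (38, others 65 to 70). At 14 days after proximal amputation they were Hoxc4 in replicate 4 (33, others 17 to 19), Hoxc8 in replicate 2 (39, others 22 to 24), Hoxd9 in replicate 2 (69, others 48 to 50) and Hoxd11 in replicate 1 (33, others 20 to 21). At 21 days after proximal amputation they were Hoxa13 in replicate 3 (60, others 85 to 88), Hoxc11 in replicate 1 (165, others 250 to 265) and Hoxd11 in replicate 1 (17, others 5 to 7).

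The change over time differed between the amputation levels in 14 results, by limma's test of the difference itself, given as distal minus proximal on the log2 scale. In each period 7 of 25 Hox genes were called, against 14.8% of all genes from 12 to 21 days and 11.7% from 12 to 14 days. From 12 to 21 days these were Hoxa9 (0.61), Hoxa10 (0.68), Hoxa11os (1.91), Hoxa13 (1.44), Hoxb9 (0.68), Hoxd11 (1.63) and Hoxd13 (0.98). From 12 to 14 days they were Hoxa11 (1.30), Hoxa13 (1.41), Hoxc8 (1.04), Hoxc9 (0.76), Hoxc13 (-1.76), Hoxd10 (0.93) and Hoxd13 (1.15). The part of tissue makeup in these differences was not tested.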

How the results depend on the processing

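Of 91 called differences of single Hox genes, none changed direction under any alternative run, and 59 stayed called whichever library was left out. The numbers that stayed called were 88 with median-ratio factors, 82 with table totals, 91 with a pseudocount of 0.5, 90 with 8, 89 with the replicate block and 70 with compared groups only. The number of Hox genes called moved by over 1.5 times in few settings. With compared groups only it was 1 between the levels at 12 days, 6 at 21 days, and 5 between 21 and 12 days after distal amputation. With a mean of at least 50, which tests 13 members, it was 6, 5 and 5 for 14 against 12, 21 against 14 and 21 against 12 days after distal amputation, and 5 and 7 for 14 against 12 and 21 against 12 days after proximal amputation. All 59 called differences that could be tested under this limit stayed called, so these lower counts reflect members that were not tested. Table totals gave 1 for the difference in the 14 to 21 day change. Leaving out 1 library gave 3 to 5, 0 to 2 and 5 to 10 between the levels at 12, 14 and 21 days. It gave 8 to 10, 8 to 9 and 4 to 8 for 14 against 12, 21 against 14 and 21 against 12 days after distal amputation, and 7 to 9, 9 to 14 and 10 to 13 after proximal amputation. For the differences in change it gave 5 to 8 (12 to 21 days), 4 to 6 (12 to 14 days) and 0 to 1 (14 to 21 days). The shares of all genes called in these alternative runs are not given here. A lower count of Hox genes therefore cannot be told apart from fewer calls over all genes.

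Table totals moved the median of all genes by -0.14 between the levels at 21 days, by 0.11 for 21 against 14 days after proximal amputation and by -0.15 for the difference in the 14 to 21 day change, and reversed uncalled Hox genes only. The share of higher genes among all calls moved by over 10 percentage points in several comparisons. With table totals it was 33.2%, against 45.6% as reported, between the levels at 12 days, and 15.0%, against 46.6%, at 21 days. It was 20.6%, against 37.0%, for 21 against 12 days after distal amputation. After proximal amputation it was 27.9%, against 48.4%, for 14 against 12 days and 65.9%, against 43.3%, for 21 against 14 days. For the differences in change it was 30.2%, against 50% (12 to 21 days), 67.3%, against 56.5% (12 to 14 days), and 12.3%, against 52.8% (14 to 21 days). With median-ratio factors it was 60.5% between the levels at 21 days, 49.9%, against 38.1%, for 21 against 14 days and 48.6% for 21 against 12 days after distal amputation, and 72.1% for the difference in the 14 to 21 day change. The cause of these moves was not tested.

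Replicate numbers were not taken to pair the libraries: deviations from the group means correlated at -0.19 to 0.19 between same-numbered libraries of 1 day. Over all 60 same-numbered pairs of different groups they ran from -0.46 to 0.70 with a median of 0.02, against -0.40 to 0.33 for pairs of different numbers, so some same-numbered pairs deviated together but not every one. With the replicate block, 9 of 25 Hox genes were called between the levels at 21 days, without Hoxc13 (adjusted p = 0.0608), and 6 for the difference in the 12 to 14 day change, without Hoxd10. The counts of the other 10 comparisons with the block were 4, 2, 10, 10, 8, 8, 13, 12, 7 and 0, as reported. The shares of all genes called with the block are not given here. Depth is unknown, and 12 of the 25 genes had a mean under 50, where rounding and low values limit what can be told apart.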

Other observations

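Beyond the Hox clusters, the T-box gene Tbx4 and the homeobox gene Pitx1, which set hind limb identity in the embryo, had their highest group mean at 14 days after distal amputation. Tbx4 averaged 105 ± 16.8, 205 ± 12.0 and 105.2 ± 10.7 in distal libraries at 12, 14 and 21 days (SD, n = 4 each), against 144 ± 24.2, 157.2 ± 60.8 and 53.2 ± 10.6 in proximal libraries. It was higher after distal amputation at 21 days (log2 difference 0.99 ± 0.19, limma adjusted p = 0.00162) and not called at 12 or 14 days (adjusted p = 0.104 and 0.18). Pitx1 averaged 91.8 ± 38.8, 168.5 ± 64.1 and 51.2 ± 16 in distal libraries, against 95.2 ± 5.32, 109.2 ± 17.4 and 83.8 ± 14.2 in proximal libraries, and was not called between the levels on any day (adjusted p from 0.0542 to 0.758). After distal amputation it rose between 12 and 14 days (0.88 ± 0.26, limma adjusted p = 0.021) and fell between 14 and 21 days (-1.68 ± 0.26, limma adjusted p = 4.24e-05).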
